A study of Homo sapiens with 6 samples.

Results

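The MYC, MXD and MondoA network is described here through 10 genes, MYC, MAX, MXD1, MXD3, MXD4, MXI1, MNT, MLXIP, TXNIP and ARRDC4, chosen by name from the 19491 genes listed in both expression tables. All 10 were found, and all 10 had enough reads (a mean of at least 5 per column in either group) to be compared in every pair of groups. With BenSer, 2 of them stood well above the rest: TXNIP was at 239 CPM against 97.1 CPM in untreated cells, and ARRDC4 was at 7.58 CPM against 3.87 CPM. MXD3 was lower (5.13 against 7.06 CPM), MXD1, MXD4 and MXI1 were somewhat higher, and MYC itself differed by little (86.0 against 91.8 CPM). With GPNA, no member was 1.5-fold different from untreated cells in either direction.

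The study asked how blocking ASCT2 (SLC1A5), a plasma membrane transporter that brings glutamine into cells, changes the transcriptome of PC-3 cells. PC-3 is an established androgen-independent prostate cancer line, so all groups share a single genetic background. The cells were untreated (control) or were exposed for 48 h to GPNA at 1 mM or to BenSer at 10 mM, small molecules used as inhibitors of ASCT2, and total RNA was sequenced. The doses of the compounds differ, so their values stand side by side below and nothing is drawn from them about the compounds' structures.

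MYC is a transcription factor that binds DNA only as a heterodimer with MAX, and the pair activates growth genes through a short palindromic element, the E-box. The MXD proteins (MXD1, MXD3, MXD4 and MXI1) and MNT also need MAX as partner and repress from the same elements, so the balance between MYC and its antagonists is central to how the network works. MLXIP, known as MondoA, pairs instead with MLX, responds to glucose 6-phosphate and related sugars, and drives TXNIP and ARRDC4, alpha-arrestins that restrain glucose uptake.

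Expression is given as CPM, reads of a gene per 1e6 reads of its library. The 6 labelled libraries held 23227180 and 23077986 reads (control), 25798967 and 25452745 reads (GPNA) and 32178154 and 31943025 reads (BenSer). Within a group, the 2 libraries hardly departed from one another beyond the sampling of reads: chi-square over genes, divided by its degrees of freedom, was 1.05 to 1.06. Libraries of different groups gave 5.50 to 20.7. The study describes its libraries as replicates, without saying whether they came from separate cultures. Because of the near identity, each group was here taken as 1 sample, which leaves no replicate check on a treatment and no p-value. Differences are in log2(CPM + 1) of the mean of the 2 columns, a scale that understates the change of low genes. A gene is called when it is at least 1.5-fold different on this scale, and the 95% intervals (Clopper-Pearson, exact) come from the reads of both columns together and cover counting error only. PC-3 markers were present in every group, with KRT8 at 251 to 289 CPM, KRT18 at 91.8 to 108 CPM and EPCAM at 92.3 to 98.8 CPM. The fibroblast collagens COL1A1 (3.73 to 5.57 CPM) and COL3A1 (0.682 to 1.22 CPM) were low.

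The elements that the network's factors are known to bind can be read in front of the 2 genes that differed most. RefSeq promoter windows (GRCh38.p14) were matched for 9 of the 10 members, 13 windows in all, and the 250 bases before each annotated gene start were searched on both strands. No window was matched for MYC, so MYC was not searched. One element searched was the E-box CACGTG, present in 2196 of 34788 such windows (6.31%). The other was a paired element of the type through which MondoA is known to act, CACGNG followed by 5 bases and a second CACGNG, where N is any base. It was present in 16 windows (0.0460%). Pairs with another spacing or relative orientation were not searched. An E-box is itself a CACGNG, so the elements can overlap, and each was counted on its own. In front of TXNIP (chr1:145996580-145996829, minus strand) the window held the paired element, whose first base lies 88 bases before the start, and no E-box. The window of ARRDC4 (chr15:97960453-97960702, plus strand) held an E-box, first base 210 bases before the start, and no paired element. Both are shown because these genes carry the main difference, 5′ to 3′ on the gene's strand, with the matched letters in capitals.
TXNIP: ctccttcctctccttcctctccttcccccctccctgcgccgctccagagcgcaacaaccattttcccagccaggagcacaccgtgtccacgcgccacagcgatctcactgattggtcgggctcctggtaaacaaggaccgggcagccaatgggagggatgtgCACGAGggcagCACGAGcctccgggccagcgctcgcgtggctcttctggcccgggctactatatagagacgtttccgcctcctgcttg
ARRDC4: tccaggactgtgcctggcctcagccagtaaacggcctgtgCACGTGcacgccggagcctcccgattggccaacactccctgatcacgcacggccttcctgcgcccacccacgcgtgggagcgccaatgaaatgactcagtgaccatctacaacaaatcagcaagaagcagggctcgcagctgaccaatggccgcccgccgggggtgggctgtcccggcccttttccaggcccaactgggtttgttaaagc
A second annotated TXNIP start had neither element. Among the other matched members, an E-box was found for MXD4 (238 bases before the start) and MNT (193 bases before the start). A match of letters is a description of the sequence and shows no binding, and these data hold no measure of binding.

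TXNIP (ENSG00000117289) encodes the thioredoxin-interacting protein, which binds thioredoxin and lowers glucose uptake. On GRCh37, the build the submitters' notes name, the gene lies at chr1:145438490-145442635 on the plus strand; the region has the opposite orientation in GRCh38. Its level was 98.8 and 95.3 CPM in the control columns, 118 and 114 CPM with GPNA, and 241 and 237 CPM with BenSer. The columns of the 3 groups did not overlap, and they rank control, GPNA, BenSer. TXNIP with GPNA exceeded control by 0.25 (interval 0.20 to 0.31), a CPM ratio of 1.19. With BenSer it exceeded control by 1.29 (1.245 to 1.34), a CPM ratio of 2.46. BenSer against GPNA gave 1.04 (0.998 to 1.08). From the top of the 18976 genes compared between BenSer and control, TXNIP was at rank 30 and ARRDC4 at rank 159.

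ARRDC4 (ENSG00000140450, chr15:98503933-98517063, plus strand, GRCh37) encodes an alpha-arrestin of the TXNIP family. It had 3.75 and 3.99 CPM in control, 3.37 and 4.13 CPM with GPNA, and 7.80 and 7.36 CPM with BenSer. The GPNA columns lay on both sides of the control columns, while both BenSer columns were above all the others. The GPNA difference of -0.035 had an interval from -0.27 to 0.20 and was not detectable with 179 and 192 merged reads. BenSer differed from control by 0.82 (0.61 to 1.02) and from GPNA by 0.85 (0.65 to 1.05). As a plain CPM ratio, BenSer was 1.96 times control.

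**Figure D1:**
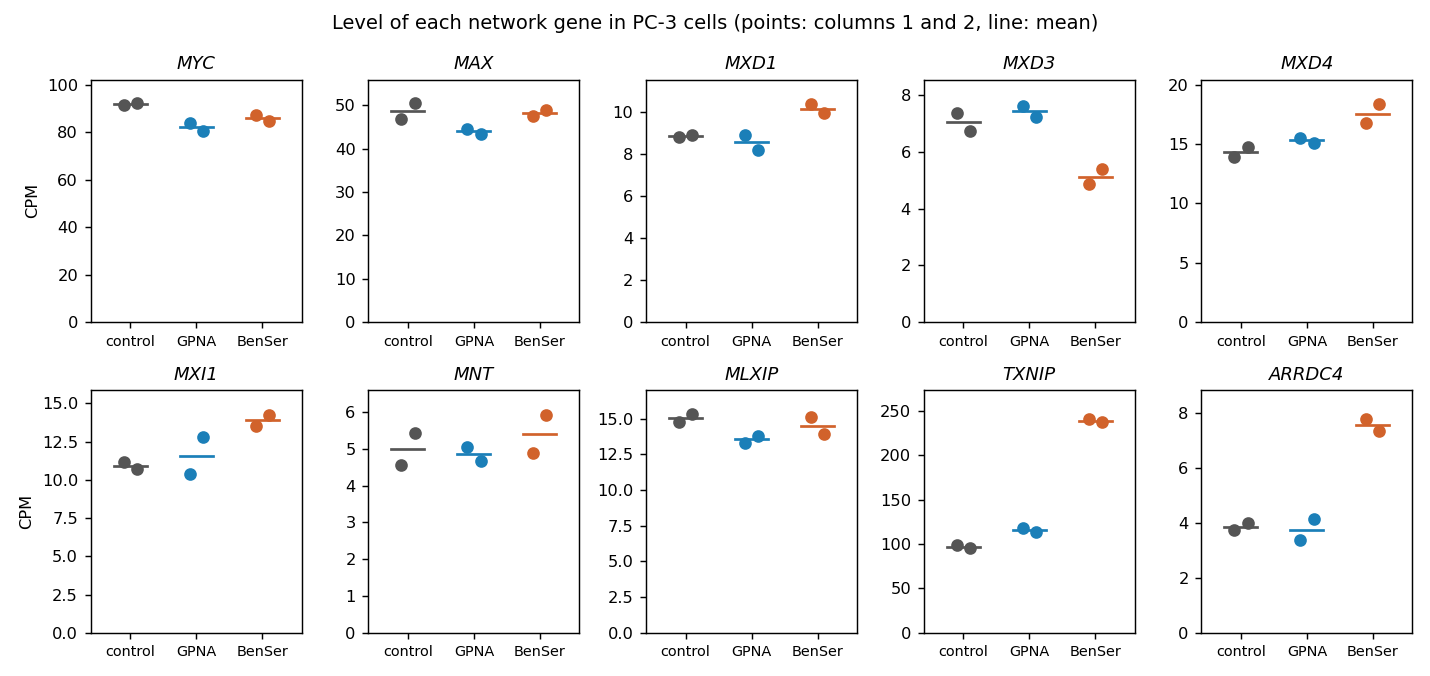
Level of each of the 10 genes in CPM (vertical axes, each from 0) in control, GPNA and BenSer; points are columns 1 and 2 of a group and lines are their mean. TXNIP (237 to 241 CPM) and ARRDC4 (7.36 to 7.80 CPM) stand highest with BenSer, and MXD3 is lowest there.

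The factor known to drive these genes, MLXIP, was not called in any comparison. MLXIP (ENSG00000175727, chr12:122516628-122631894, plus strand) had 14.8 and 15.3 CPM in control, 13.3 and 13.8 CPM with GPNA, and 15.1 and 13.9 CPM with BenSer. With GPNA both columns were below the control columns, at a difference of -0.14 (interval -0.28 to 0.0029). The BenSer columns overlapped those of control (-0.050, -0.18 to 0.084). Its partner MLX was at 20.4 CPM in control, 18.6 CPM with GPNA and 18.4 CPM with BenSer. MLXIP protein is known to be controlled by its location in the cell, which RNA levels do not measure.

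MYC (ENSG00000136997, chr8:128747680-128755197, plus strand) drives the growth programme. It had 91.4 and 92.3 CPM in control, 83.7 and 80.7 CPM with GPNA, and 87.3 and 84.7 CPM with BenSer. Both treatments lay below control in both columns, by small amounts. The difference from control was -0.16 with GPNA (interval -0.22 to -0.097), or 0.895 of the control CPM. It was -0.093 with BenSer (-0.15 to -0.036), or 0.937 of the control CPM. With TMM scaling the MYC differences were -0.12 with GPNA and -0.047 with BenSer. In the main setting, 38.5% of all genes lay below MYC with BenSer and 19.5% with GPNA. In bulk RNA, a lower level per cell and fewer cells with the transcript cannot be told apart.

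MAX (ENSG00000125952, chr14:65472892-65569413, minus strand), the shared partner, had 46.9 and 50.4 CPM in control, 44.5 and 43.4 CPM with GPNA, and 47.5 and 48.9 CPM with BenSer. With GPNA it was lower in both columns (-0.14, interval -0.23 to -0.061). With BenSer it lay between the 2 control columns (-0.013, -0.090 to 0.064). This near-zero difference changed sign with other scalings (0.033 with TMM).

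Among the antagonists, MXD3 went the other way from its relatives with BenSer. MXD3 (ENSG00000213347, chr5:176728462-176739758, minus strand), the member of the family known for expression in dividing cells, had 7.36 and 6.76 CPM in control, 7.64 and 7.23 CPM with GPNA, and 4.88 and 5.38 CPM with BenSer. The GPNA columns overlapped those of control (0.065, interval -0.13 to 0.26). With BenSer both columns were below all the others, by -0.39 (-0.59 to -0.20) from control and by -0.46 (-0.65 to -0.27) from GPNA. In CPM, BenSer was at 0.727 of control and 0.690 of GPNA. Exons of MXD3 share 1148 bases with PRELID1 on the opposite strand, which was at 53.1 CPM in control, 47.0 CPM with GPNA and 43.6 CPM with BenSer. Whether the authors' counting used strand is not given in the sources used here, so reads of MXD3 and PRELID1 might be mixed, and the part of PRELID1 in the MXD3 values was not tested.

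MXD1, MXD4 and MXI1, antagonists known from cells that leave the cycle and differentiate, were each higher with BenSer in both columns than in both control columns. MXI1 (ENSG00000119950, chr10:111967363-112047123, plus strand) had 11.2 and 10.7 CPM in control, 10.4 and 12.8 CPM with GPNA, and 13.5 and 14.2 CPM with BenSer. Its difference from control was 0.32 with BenSer (interval 0.17 to 0.47). It was 0.077 with GPNA (-0.084 to 0.24), where the 2 columns lay on both sides of control. MXD4 (ENSG00000123933, chr4:2249159-2263836, minus strand) had 13.9 and 14.8 CPM in control, 15.5 and 15.1 CPM with GPNA, and 16.8 and 18.3 CPM with BenSer. Both treated groups lay above control, by 0.087 with GPNA (-0.054 to 0.23) and 0.27 with BenSer (0.14 to 0.40). MXD1 (ENSG00000059728, chr2:70124820-70170077, plus strand) had 8.83 and 8.88 CPM in control, 8.92 and 8.21 CPM with GPNA, and 10.4 and 9.96 CPM with BenSer. Its BenSer difference of 0.18 (0.017 to 0.34) was the smallest of the 3, and with GPNA it was -0.043 (-0.22 to 0.13). None of these differences reached 1.5-fold.

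MNT (ENSG00000070444, chr17:2287367-2304398, minus strand), an antagonist that is expressed in dividing and resting cells alike, had 4.56 and 5.42 CPM in control, 5.04 and 4.68 CPM with GPNA, and 4.88 and 5.92 CPM with BenSer. The columns of all 3 groups overlapped. GPNA differed from control by -0.032 (interval -0.25 to 0.19). For BenSer the value was 0.095 (-0.11 to 0.30), and neither was detectable at 231 to 346 merged reads.

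Counted over the members, 0 of 10 were called with GPNA against control, where 0.340% of 18828 genes compared were called higher and 0.0637% lower. With BenSer against control, 2 of 10 were called higher (TXNIP and ARRDC4; background 1.96% of 18976 genes) and 0 lower (background 1.58%). The same 2 genes were called higher with BenSer against GPNA (background 1.05% of 19056 genes), and 0 lower (background 0.813%). A weaker criterion is a counting interval that excludes 0, which abundant genes meet at smaller differences than genes with few reads. For this criterion the members were not compared with genes of the same level. With GPNA it held for TXNIP above control (1 of 10, background 9.78%) and for MYC and MAX below control (2 of 10, background 20.1%), which is near the background. With BenSer it held for MXD1, MXD4, MXI1, TXNIP and ARRDC4 above control (5 of 10, background 18.2%) and for MYC and MXD3 below control (2 of 10, background 25.8%). Between BenSer and GPNA it held upwards for 7 of 10 (MYC, MAX and the same 5 genes, background 21.2%) and downwards for MXD3 (1 of 10, background 20.7%). All these intervals use library totals and were not recomputed with other scalings. With TMM scaling the BenSer difference of MYC from control was -0.047, so its place below control depends on the scaling. The median difference of all genes was -0.028 with GPNA and with BenSer, and the median size of a difference, without sign, was 0.11 and 0.15. Of all genes compared, 56.7% lay below 0 with GPNA, 55.4% with BenSer and 52.1% between BenSer and GPNA. The comparisons of each treatment with control share the control columns.

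**Figure D2:**
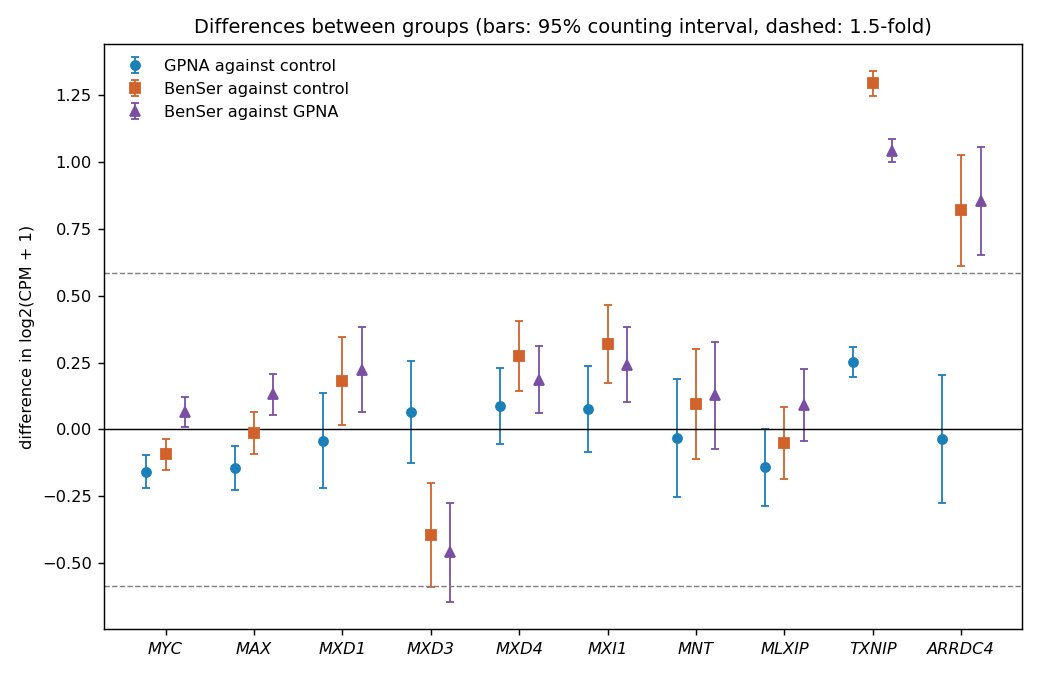
Difference in log2(CPM + 1) of each gene (vertical axis) for GPNA against control (circles), BenSer against control (squares) and BenSer against GPNA (triangles); bars are 95% counting intervals and dashed lines mark 1.5-fold. Only TXNIP (1.29 and 1.04) and ARRDC4 (0.82 and 0.85) pass the dashed line, both in the comparisons with BenSer.

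Levels of different genes were compared per kb of annotated exon (union of exons, GENCODE lifted to GRCh37). In control the order was TXNIP (27.0 CPM per kb), MYC (15.0), MAX (7.78), MXD4 (2.09), MXI1 (1.85), MXD3 (1.49), MXD1 (1.39), MLXIP (1.08), ARRDC4 (0.952) and MNT (0.573). Neighbours whose counting intervals overlapped were MXD4 and MXI1, MXD3 and MXD1, and MLXIP and ARRDC4. With GPNA the order and these pairs were the same. With BenSer, ARRDC4 was in place 6, at 1.87 CPM per kb, with an interval that overlapped that of MXD1 in the next place (1.60 CPM per kb), and MXD3 in place 8, at 1.08 CPM per kb, where its interval overlapped that of MLXIP (1.04 CPM per kb); TXNIP reached 66.6 CPM per kb.

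Set against the MXD genes and MNT, MYC was lower with both compounds. The 5 genes MXD1, MXD3, MXD4, MXI1 and MNT summed to 7.40 CPM per kb in control, 7.66 with GPNA and 8.21 with BenSer, while MYC was at 15.0, 13.5 and 14.1 CPM per kb. MGA, another MAX partner, is outside this sum, and its level per kb was not computed. In plain CPM, MGA was above MYC in every group, at 138 in control, 135 with GPNA and 135 with BenSer. The ratios below therefore do not cover all MAX partners. The level of MYC per summed antagonist was 2.03 in control (interval 1.93 to 2.14), 1.76 with GPNA (1.67 to 1.85) and 1.72 with BenSer (1.64 to 1.79). The intervals of both treated groups lay below that of control and overlapped each other. With BenSer the 2 columns gave 1.80 and 1.64, a wider gap than in control (2.03 and 2.04). MYC made up 67.0% of the 6 genes in control, 63.7% with GPNA and 63.2% with BenSer. These are ratios of RNA, and MYC protein, which is known to be short-lived, was not measured here.

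**Figure D3:**
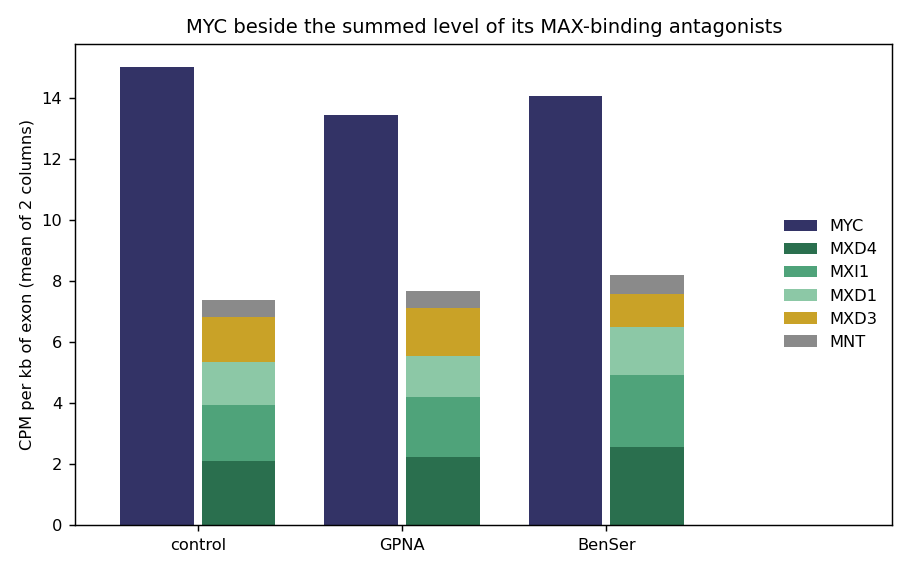
Level per kb of exon of MYC beside the stacked levels of MXD4, MXI1, MXD1, MXD3 and MNT in control, GPNA and BenSer (vertical axis in CPM per kb, mean of 2 columns, no error drawn). The stack is 7.40, 7.66 and 8.21 CPM per kb high and the MYC bar 15.0, 13.5 and 14.1, with a smaller MXD3 segment for BenSer.

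Other members share fewer exon bases with neighbours than MXD3 does with PRELID1. Exons of MAX share 822 bases with FNTB on the opposite strand (13.6 to 16.6 CPM), those of MXD1 share 237 bases with SNRNP27 on the same strand (21.0 to 22.7 CPM), and those of MYC share 194 bases with the antisense gene CASC11 (0.0467 to 0.351 CPM). MXD3 also shares 926 bases with RAB24 on the same strand (0.483 to 0.540 CPM), and MNT shares 1065 bases with an antisense lncRNA that was not analysed here. The part of these neighbours in the members' values was not tested. TXNIP and ARRDC4 shared no exon bases with another annotated gene.

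The wider network was read from lists of related genes. Of the 5 partners and relatives MLX, MLXIPL, MGA, MYCL and ZBTB17, only MYCL was called. It was called higher with BenSer against control (1.96% of all genes) and against GPNA (1.05% of all genes). None of the 5 was called with GPNA against control, where 0.340% of all genes were called higher and 0.0637% lower. MYCL, a paralogue of MYC that also pairs with MAX, had 2.11 and 1.91 CPM in control, 1.71 and 1.81 CPM with GPNA, and 3.39 and 4.01 CPM with BenSer. It was 0.64 higher with BenSer than in control (interval 0.39 to 0.89) and 0.77 higher than with GPNA. The call against control was lost without BenSer column 2 (0.54) and with a pseudocount of 5 (0.31). MGA, a large MAX partner, differed by -0.025 with GPNA and -0.029 with BenSer. ZBTB17 (MIZ1), through which MYC represses genes, differed by -0.22 and 0.084.

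Most listed MYC target genes were lower with both compounds, most of them by less than 1.5-fold. The list holds 57 genes, many of them for ribosome assembly in the nucleolus. With GPNA, 53 of the 56 compared were below 0 and 3 above, where 56.7% of all genes were below 0, with a median of -0.19 against -0.028 for all genes, and none was called in either direction. The counting interval lay below 0 for 42 of 56, against 20.1% of all genes, and above 0 for none. With BenSer, 55 of 57 were below 0, against 55.4% of all genes, with a median of -0.34 against -0.028, and the interval lay below 0 for 51 of 57, against 25.8% of all genes. Counting intervals are narrower for abundant genes, and the list was not compared with genes of the same level. Directly between BenSer and GPNA, 47 of 57 were below 0, against 52.1% of all genes, with a median of -0.14 against -0.0093.

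The 3 of 57 target genes called lower with BenSer were PLK1, UNG and NPM1, where 1.58% of all genes were called lower. All 3 calls lay close to the threshold. PLK1, a mitotic kinase, had 46.6 and 44.6 CPM in control, 38.5 and 34.8 CPM with GPNA, and 26.5 and 31.5 CPM with BenSer (-0.64 from control). UNG, the uracil-DNA glycosylase, had 43.3 and 41.5 CPM in control and 27.4 and 27.8 CPM with BenSer (-0.60). NPM1, the nucleolar protein nucleophosmin, was at 979 CPM in control, 883 CPM with GPNA and 650 CPM with BenSer (-0.59). With TMM scaling UNG (-0.56) and NPM1 (-0.54) were no longer called, and neither was PLK1 without BenSer column 1 (-0.52) or UNG without control column 1 (-0.57). All 3 were also below control with GPNA in both columns. The lowest values with GPNA were those of PPRC1 (-0.43), SLC19A1 (-0.42), RRP12 (-0.39) and MYBBP1A (-0.38). HK2, a hexokinase and an exception in the list, was at 103 CPM in control, 104 CPM with GPNA and 113 CPM with BenSer (0.12, interval 0.072 to 0.18).

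Genes known to be repressed by MYC through MIZ1 lay on the other side of 0 in part. Of 8 compared, 6 were above 0 with GPNA (median 0.12), where 43.3% of all genes were, and 5 with BenSer (median 0.23), where 44.6% of all genes were. With BenSer 3 of the 8 were called higher, against 1.96% of all genes. CDKN1A, the cell cycle inhibitor p21, had 8.18 and 8.45 CPM in control, 13.5 and 11.7 CPM with GPNA, and 16.9 and 17.3 CPM with BenSer. The 3 groups ranked in that order without overlap, with differences from control of 0.55 and 0.96. CDKN2B (p15) was at 24.0, 28.2 and 42.6 CPM, 0.81 above control with BenSer. NDRG1, known to respond to stress and hypoxia, was at 567, 723 and 923 CPM, 0.70 above control with BenSer. Of the 3 genes below 0 with BenSer, 2 had intervals below 0, CDKN2C (-0.38) and GADD45A (-0.17, interval -0.29 to -0.064).

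The relatives of TXNIP and ARRDC4 included the gene with the largest difference of all lists. ARRDC3, an alpha-arrestin of the same family, had 28.2 and 30.9 CPM in control, 49.4 and 47.5 CPM with GPNA, and 112 and 116 CPM with BenSer. Of the 3 relatives compared, ARRDC3 alone was called, higher in both treatments. Of all genes, 0.340% were called higher with GPNA and 1.96% with BenSer. ARRDC3 exceeded control by 0.70 with GPNA (interval 0.60 to 0.79) and by 1.92 with BenSer (1.84 to 1.999). Its columns ranked control, GPNA, BenSer without overlap, as those of TXNIP did. ARRDC2 was at 10.8, 11.7 and 14.9 CPM, 0.43 above control with BenSer (0.28 to 0.58). ARRDC1, a more distant member of the family, differed by 0.055 with BenSer (-0.090 to 0.20).

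Genes of the thioredoxin system, which TXNIP is known to inhibit, lay below 0 in 5 of 9 cases with GPNA, close to the share of all genes (56.7%), and in 7 of 9 with BenSer (all genes 55.4%). None was called in either direction with GPNA or BenSer. The median was -0.020 with GPNA, or 0.020 with TMM scaling. With BenSer it was -0.12, or -0.086 with TMM scaling. TXN itself was at 67.1 CPM in control, 66.2 CPM with GPNA and 53.8 CPM with BenSer (-0.31). PRDX3, the mitochondrial peroxiredoxin, differed by -0.42 with BenSer. The 2 genes above 0 with BenSer were PRDX1 (0.12, interval 0.080 to 0.16) and TXNRD1 (0.023, interval -0.0084 to 0.054).

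Genes of glucose uptake and of the glucose response were divided. SLC2A1, the glucose transporter GLUT1, was at 57.3 CPM in control, 55.7 CPM with GPNA and 81.7 CPM with BenSer (0.50). PFKFB4, which sets the glycolytic activator fructose 2,6-bisphosphate, was 0.51 above control with BenSer. FASN, the fatty acid synthase, was at 53.1, 53.8 and 28.5 CPM. It was the 1 gene of the 10 called lower with BenSer (-0.88), where 1.58% of all genes were called lower. SCD, the stearoyl-CoA desaturase, was at 96.2, 144 and 72.3 CPM, which is 0.58 above control with GPNA, just short of 1.5-fold, and -0.41 with BenSer. Of the 10 genes compared, 5 were above 0 and 5 below with BenSer, with a median of 0.0036. Directly between BenSer and GPNA, 5 were also above 0 and 5 below. There SCD (-0.99) and FASN (-0.89) were called lower, 2 of the 10, where 0.813% of all genes were. In that comparison 0 of the 10 were called higher, where 1.05% of all genes were.

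**Figure D4:**
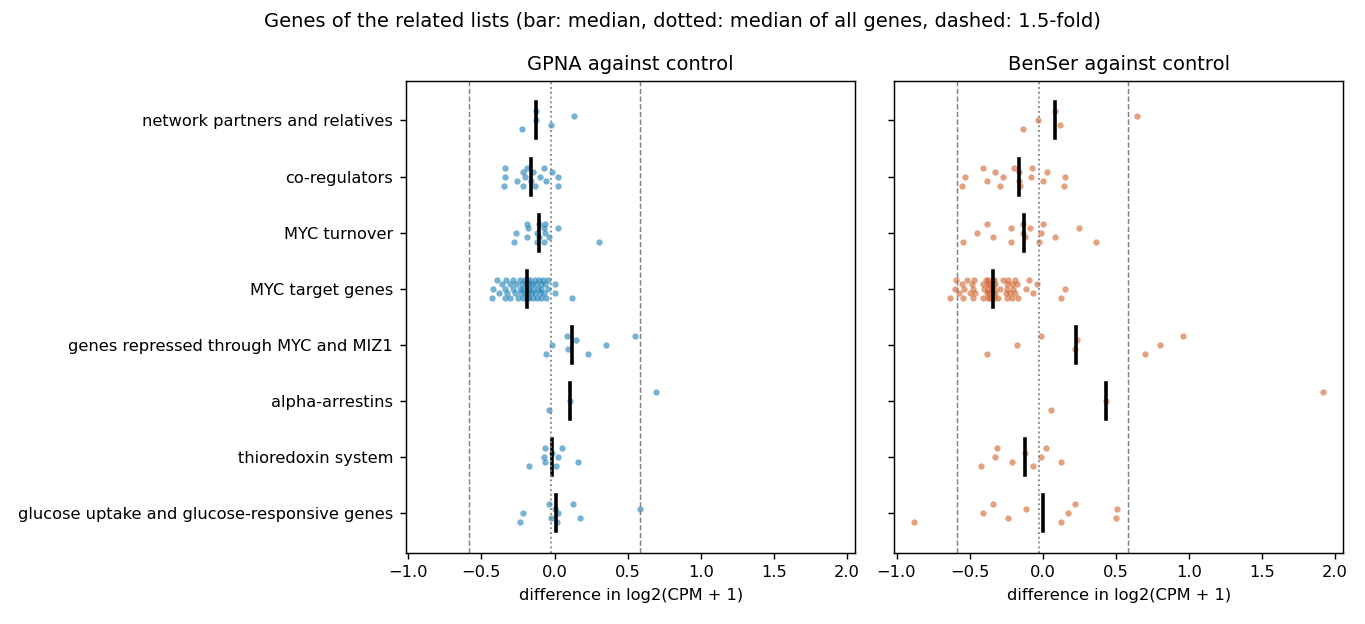
Difference in log2(CPM + 1) (horizontal axis) of each gene of 8 related lists for GPNA against control (left) and BenSer against control (right); short bars are list medians, the dotted line the median of all genes (-0.028) and dashed lines 1.5-fold. Most MYC target genes sit left of 0 (medians -0.19 and -0.34), and the alpha-arrestin ARRDC3 lies farthest right (0.70 and 1.92).

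Genes of the network's co-regulators and of the proteins that set MYC stability lay mostly below 0. Of 17 co-regulators, 15 were below 0 with GPNA (median -0.16; 56.7% of all genes) and 13 with BenSer (median -0.17; 55.4% of all genes). None was called in either direction, where 0.340% and 0.0637% of all genes were called higher and lower with GPNA, and 1.96% and 1.58% with BenSer. The co-regulator list holds both coactivators and corepressors, so a shared direction has no single meaning for MYC. ACTL6A (-0.55) and RUVBL1 (-0.53), subunits of chromatin complexes that MYC recruits, had the lowest values with BenSer. With GPNA, HCFC1 and WDR5 were among the lowest (-0.34 each). Of 16 genes of MYC turnover, 14 were below 0 with GPNA (median -0.11) and 12 with BenSer (median -0.13). The shares of all genes were 56.7% and 55.4%. With TMM scaling these counts were 13 and 10 (medians -0.070 and -0.081), where 49.4% and 49.6% of all genes were below 0. None of the 16 was called in either direction. The list holds both ubiquitin ligases and deubiquitinases, so a shared direction has no single meaning for MYC. AURKA, a mitotic kinase that also stabilises MYC family proteins, differed by -0.28 with GPNA and -0.54 with BenSer. PIM1, a kinase that acts on MYC, differed by 0.31 and 0.37. The ubiquitin ligase SKP2 differed by -0.19 and -0.34, and the deubiquitinase USP28 by 0.25 with BenSer.

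Likeness to MYC and TXNIP was measured as the distance between the pairs of differences from control (GPNA and BenSer) over 7924 genes with a mean of at least 10 CPM. This describes 3 groups of 1 sample each. CUEDC1 (distance 0.0018), FOSL1 (0.0071) and ENAH (0.0080) lay closest to MYC. The counting intervals of MYC itself (-0.22 to -0.097 with GPNA, -0.15 to -0.036 with BenSer) are far wider than these distances. Which genes lie closest to MYC is therefore not settled by these reads. ALDH3A1 (0.017), AKR1C3 (0.097) and RDH10 (0.14) lay closest to TXNIP, at 1.28, 1.22 and 1.16 above control with BenSer.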

How the data were processed

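The authors made stranded total RNA libraries, mapped paired reads with TopHat2 and Bowtie2 to hg19 (GRCh37.p13) and counted them with HTSeq 0.6.2p2, per the labels and the submitters' processing notes; the strand setting of the counting is not given in the sources used here. They deposited CPM values in 2 tables of 4 columns per group, beside columns of their own comparisons (log2 fold change, average log2 CPM, p-value, false discovery rate), which were not used. Columns 1 and 2 match labelled samples; 8 column entries with other numbers were not used here, although all columns were seen when the tables were opened. The doses come from a figure legend of the study. Its methods name 4 replicates per group and do not say whether they were separate cultures. All values were whole reads (tolerance 0.001 reads) over the library total, so reads were recovered.

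Genes averaging 5 reads or more per column in any compared group were compared by log2(CPM + 1) of the group means, without a test, called at 1.5-fold. The chi-square between columns was limited to genes with 20 or more reads over both. The members, lists and rules were chosen with earlier results of these data known. All members were named; from each list, every called gene and at most the 4 largest differences in each direction at 1 CPM or more could be named. The list genes MYCN, KAT2A, GADD45G, CEBPA, ARRDC5, SRXN1, SLC2A3, SLC2A4, PKLR and G6PC and the markers KLK3, PTPRC and PECAM1 were not analysed here, and some other list genes are not reported by name. Alternatives were other pseudocounts, filters, scalings and thresholds, leaving out a column, and tests of columns as samples with limma 3.58.1, edgeR 4.0.16 and DESeq2 1.42.0 (R 4.3.3). The calculations were tested on simulated data and run with Python 3.11.15, numpy 2.4.6, pandas 2.3.3, scipy 1.17.1 and matplotlib 3.10.9.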

Additional observations from a re-analysis of the deposited data

How the results depend on the processing

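With each group taken as 1 sample, every value compares libraries and cannot separate a treatment from its culture, and depth limits ARRDC4, MNT and MXD3 most. Counts follow in the order GPNA against control, BenSer against control, BenSer against GPNA. Genes at least 1.5-fold different numbered 76, 671 and 356. They numbered 1531, 2602 and 2173 with a pseudocount of 0.1, 31, 273 and 117 with 5, 1054, 3357 and 2657 at a difference of 25%, and 9, 92 and 30 at 2-fold. With columns taken as samples (Benjamini-Hochberg adjusted p under 0.05, a test of libraries), limma called 3363, 6826 and 6429, edgeR 3264, 6813 and 6368, and DESeq2 979, 3955 and 3508. The replicate block in edgeR gave 3366, 6195 and 6476; the column numbers are not known to pair samples, since deviations of same-numbered columns correlated at 0.043 to 0.066 over 7924 genes. Leaving out single columns gave 99 to 113, 696 to 749 and 390 to 413. TMM scaling moved the BenSer split from 371 higher and 300 lower to 432 and 214 (size factors 435 and 212).

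Of the members, 0, 2 and 2 were called. With a pseudocount of 5, or at 2-fold, the latter counts were 1 and 1 (TXNIP). With limma, edgeR and edgeR with the replicate block they were 3, 6 and 7, and with DESeq2 1, 4 and 3. Among list genes, 1, 9 and 4 were called. This became 16, 59 and 23 at a difference of 25% and 0, 1 and 1 at 2-fold, and the GPNA count was 4 with a pseudocount of 0.1, 2 with TMM or size factors, and 1 to 3 when single columns were left out (2 without control column 2, 3 without GPNA column 2). List genes called lower with BenSer went from 4 to 2 with TMM or size factors, by the loss of UNG and NPM1. Of 330 member values under the alternatives, 326 stayed within the counting interval and 0 called values changed sign; 14 uncalled ones did (MNT, ARRDC4, MXD1 and MXI1 with GPNA, and MAX, MNT and MLXIP with BenSer). The 4 outside it were ARRDC4 with a pseudocount of 5 (0.50 against control, 0.52 against GPNA), MXI1 against GPNA without GPNA column 2 (0.39) and TXNIP with size factors (1.34). MYC per summed antagonist was 1.99, 1.72 and 1.65 without division by length, and 1.64 to 1.80 with BenSer when either BenSer column was left out, an alternative chosen after seeing the data. The causes of these shifts were not tested.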
